A study of Mus musculus with 24 samples.

Results

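The enteric nervous system of the mouse colon was described through 8 genes, chosen by name: the neuronal genes Uchl1 and Elavl4, the transmitter genes Vip and Nos1, the receptor gene Ret, and the glial genes Sox10, S100b and Gfap. Every probe set annotated to one of these symbols was taken, which gave 19 of the 45137 probe sets of the series (15 on the 430A and 4 on the 430B array) and 8 of its 18193 named genes. The samples were total RNA of the whole colon of BALB/c mice, an inbred laboratory strain, aged 6 to 8 weeks, of which 12 numbered samples were each hybridised to 1 Affymetrix 430A and 1 Affymetrix 430B array. Mice were fed either standard diet or one containing 2% curcumin, a polyphenol of turmeric, from 2 days before an enema on day 0, and were killed on day 7. The enema was a control or TNBS, a hapten that provokes colitis, which made 4 groups of 3 samples: standard control, standard TNBS, curcumin control and curcumin TNBS. The labels give no mutant allele, although they speak of wild-type littermates, and state that RNA was pooled from 3 mice per group. Whether separate pools lie behind the 3 samples per group is not stated, so p-values measure only the spread between these samples, which may be technical.

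Enteric neurons lie in ganglia between the muscle layers and beneath the mucosa, where they control motility, secretion and blood flow largely on their own. Inhibitory motor neurons relax the gut muscle with nitric oxide, made by the neuronal synthase that Nos1 encodes, and with vasoactive intestinal peptide, the product of Vip. Enteric glia, which depend on the transcription factor Sox10 and contain S100b and Gfap, surround these neurons, and Ret, the receptor for GDNF family ligands, is needed for the neural crest cells that found the system to colonise the gut. In RNA of whole colon, fewer cells of a type and less RNA per cell cannot be told apart.

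Signals are on the scanner software's linear scale, scaled to a common mean per array, with array medians of 226.7 to 284.0 on 430A and 256.5 to 346.2 on 430B. Their number, 3 arrays of a type per group, limits the precision. The 12 arrays of 430A fell into 2 sets of 6 by the sign of their first principal component, which held 31.95% of the variance. The groups had 1 or 2 arrays in each set, and the labels name no batch that would match the sets. On 430B the arrays of curcumin TNBS samples 2 and 3 stood apart, with mean correlations to the other arrays of 0.786 and 0.780 against 0.864 to 0.889 for the other 10. Summed signal of 5 pancreatic genes ran from 409 to 64113 over the 430A arrays, with 27081 or more in all 3 standard TNBS samples and both high and low samples in each of the other groups.

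Of the 19 probe sets, 8 from 6 genes had a mean above the 40th percentile of their array type (a signal of about 180 on 430A and 195 on 430B) and entered the test. All 3 probe sets of Elavl4 and both of S100b lay below this level, as did some of Nos1, Gfap and Sox10. Values for these 11 are descriptions. A probe set was called past the threshold at an adjusted p under 0.05 in limma, with adjustment over all probe sets tested on its array type. In none of the 7 comparisons did a probe set of these genes pass. For TNBS against control enema on the standard diet, 0 of 8 passed and 1 had an unadjusted p under 0.05, beside 0.00739% past the threshold and 7.27% with such an unadjusted p among all 27081 probe sets tested. The corresponding member counts were 0 and 0 for TNBS on the curcumin diet (0.203% and 13.3% of all) and 0 and 1 for curcumin with the control enema (0.00369% and 3.61%). They were 0 and 0 for curcumin with TNBS (0.805% and 16.9%) and for the interaction of diet and enema (0.0332% and 13.5%). Averaged over diets, TNBS gave 0 and 0 (0.0148% and 7.22%), and averaged over enemas, curcumin gave 0 and 0 (0.00369% and 7.5%). These shares pool 2 array types that differed. For TNBS on the curcumin diet an unadjusted p under 0.05 in limma was found for 373 of 13575 probe sets on 430A and 3238 of 13506 on 430B. For curcumin with TNBS the numbers were 1378 and 3191, and for the interaction 1347 and 2315.

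Counted by whether the samples of 2 groups overlapped, TNBS on the standard diet had 0 of 8 tested member probe sets higher and 1 lower without overlap, beside 6.9% and 7.56% of all tested probe sets. TNBS on the curcumin diet had 0 higher and 0 lower (7.16% and 6.53% of all). Curcumin with the control enema had 0 higher and 1 lower (3.68% and 4.65%), and curcumin with TNBS had 1 higher and 1 lower (10.4% and 9.89%). With 6 samples against 6, neither the TNBS samples (0.0775% higher and 0.129% lower over all) nor the curcumin samples (0.122% and 0.148%) were set apart for any tested member probe set.

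**Figure D1:**
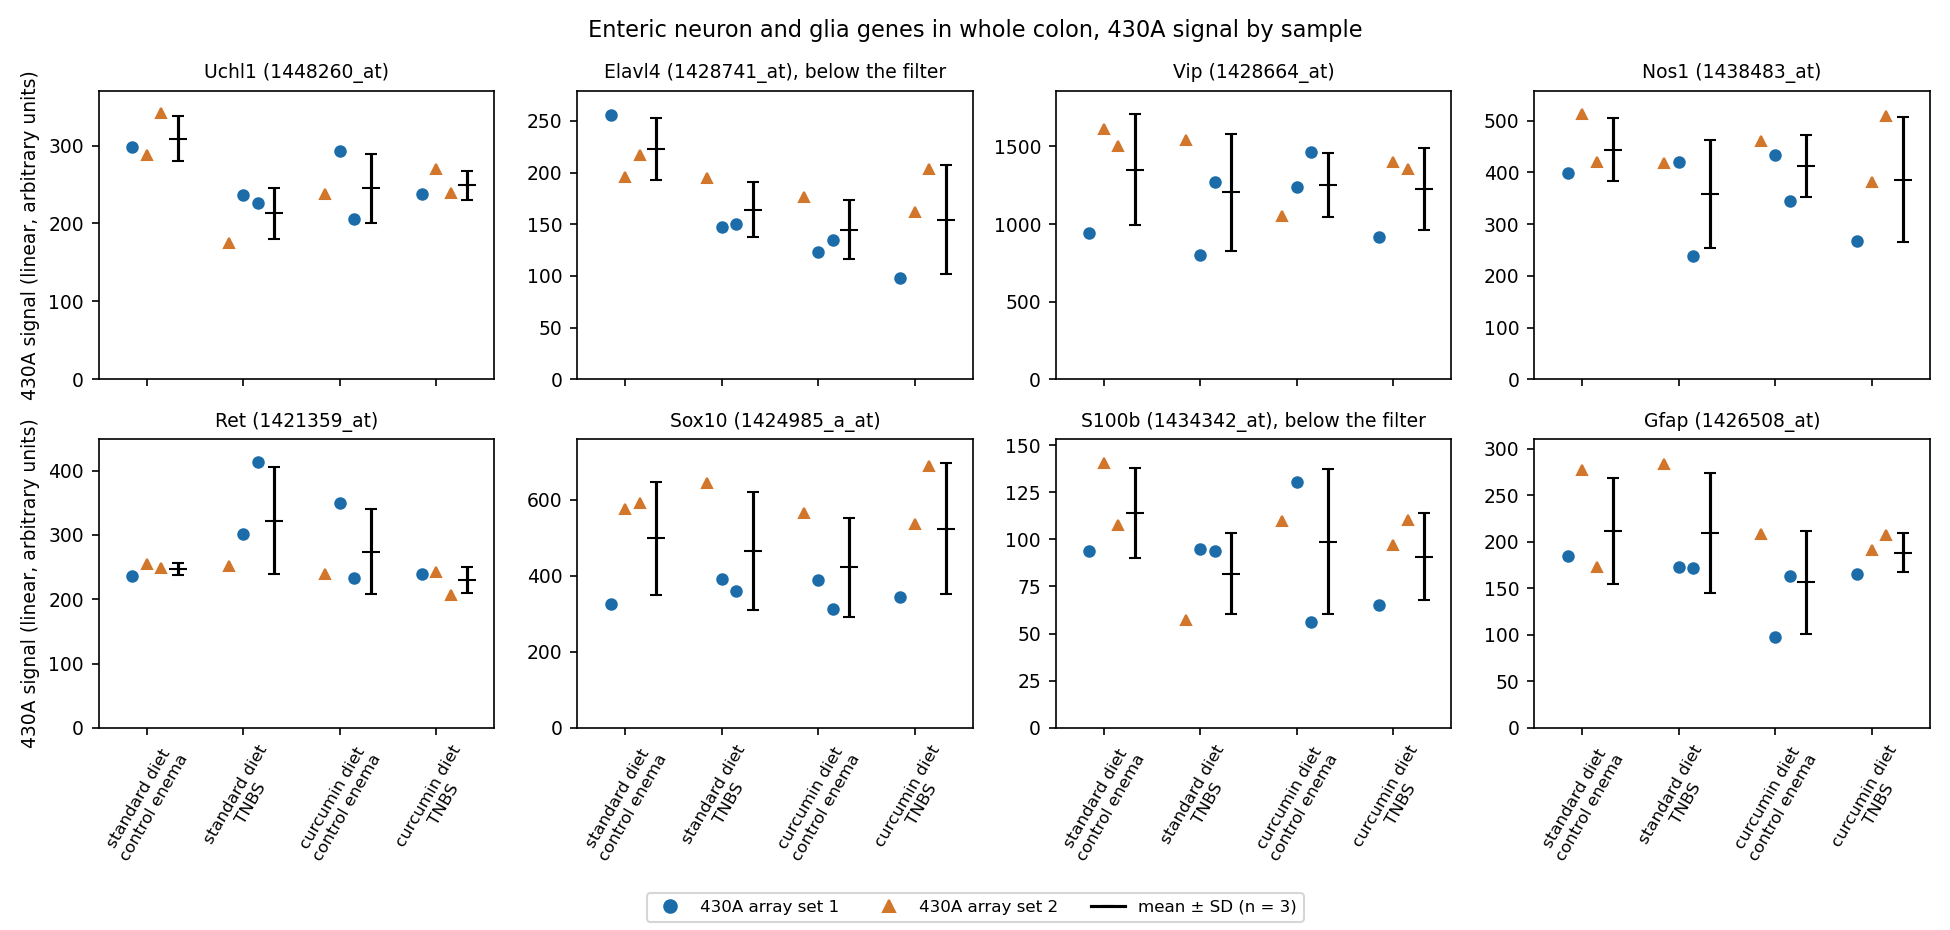
Signal of 1 probe set per gene on the 430A arrays (vertical axis, linear arbitrary units) in the 3 samples of each diet and enema group, with the mean ± SD beside them. Circles and triangles are array sets 1 and 2; the mean of Uchl1 is highest in the standard controls (309), and Sox10 follows the array set in every group.

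Uchl1 encodes an abundant neuronal ubiquitin hydrolase, also known as PGP9.5, that is widely used to stain enteric neurons and is also found in endocrine cells. Its single probe set (1448260_at) gave signals of 298, 288 and 341 in the standard control samples and 175, 237 and 226 in the standard TNBS samples. The 3 TNBS samples were all lower, with no overlap, as were 7.56% of all probe sets tested. The group means were 309 ± 28.5 and 213 ± 33.0 (SD, n = 3 each). The log2 difference was −0.51 ± 0.19 (SE), which on the scale of signal plus 16 is a fold of 0.701 with a 95% confidence interval of 0.528 to 0.930, with an unadjusted p of 0.0180 and an adjusted p of 0.389 in limma. On the curcumin diet the signals were 238, 293 and 206 with the control enema and 238, 270 and 239 with TNBS. Those groups overlapped, with means of 245 ± 44.0 and 249 ± 18.4 and a log2 difference of 0.03 ± 0.19. The difference between the TNBS effects on the 2 diets was 0.55 ± 0.27 on the log2 scale (95% confidence interval −0.03 to 1.12, adjusted p = 0.521). Curcumin TNBS samples lay above standard TNBS samples without overlap (238 the lowest, 237 the highest), as did 10.4% of all probe sets tested, and the log2 difference of 0.22 ± 0.19 had an adjusted p of 0.765. These comparisons share samples: the standard TNBS group enters the first and the last.

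Within the 430A array sets, the log2 differences of Uchl1 for TNBS on the standard diet were −0.34 and −0.79, each from 1 array against 2. Both had to be negative because the groups did not overlap, so they add no separate evidence. A fit that also included the array set gave −0.53 ± 0.18 (adjusted p = 0.196). Leaving out each sample in turn gave −0.59 to −0.39, with adjusted p from 0.358 to 0.745. Uchl1 had the smallest spread within groups of the 6 tested genes on 430A, an SD of 0.18 on the log2 scale, where the median over all tested probe sets was 0.24.

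Elavl4, which encodes the neuronal RNA-binding protein HuD, was below the filter on all 3 of its probe sets. The brightest (1428741_at) read 256, 196 and 217 in standard controls, 195, 147 and 150 in standard TNBS, 177, 123 and 134 in curcumin controls and 98.4, 162 and 203 in curcumin TNBS samples. Standard controls had the highest mean. Standard TNBS and curcumin control samples lay below them without overlap, as did 7.56% and 4.65% of all tested probe sets in these comparisons. The lowest of the controls (196) was close to the highest of the standard TNBS samples (195). The other probe sets (1450258_a_at and 1452894_at) had ranges of 50.9 to 172 and 49.9 to 104 and overlapped in every comparison of groups. For TNBS on the standard diet the 3 probe sets gave log2 differences of −0.41, −0.38 and −0.40, all with 95% confidence intervals that included 0.

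Vip had 1 probe set (1428664_at), with signals of 941, 1609 and 1502 in standard controls and 1543, 800 and 1269 in standard TNBS samples. In the curcumin groups they were 1050, 1237 and 1462 with the control enema and 920, 1399 and 1352 with TNBS. High and low samples occurred in every group, and all groups overlapped. The means ran from 1204 to 1350 (1350.5 in standard controls), and no comparison of groups differed by more than 0.18 on the log2 scale. The 95% confidence interval for TNBS on the standard diet, −0.75 to 0.40, spans folds of 0.594 to 1.32 on the scale of signal plus 16.

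Nos1 was read by 4 probe sets that did not behave alike. The tested one on 430A (1438483_at) gave 399, 513 and 421 in standard controls, 418, 420 and 238 in standard TNBS, 460, 434 and 346 in curcumin controls and 268, 382 and 509 in curcumin TNBS samples. These groups overlapped, and the log2 differences lay between −0.33 and 0.10. The tested one on 430B (1429887_at) gave 1755, 2904 and 1760 in standard controls, 1590, 1575 and 1829 in standard TNBS, 1531, 1830 and 1170 in curcumin controls and 1830, 1769 and 1302 in curcumin TNBS samples. Standard control sample 2 was the highest of the 12, and the groups overlapped in every comparison. Curcumin against standard diet with the control enema gave −0.48 ± 0.22 on the log2 scale (unadjusted p = 0.0427, adjusted p = 0.997 in limma), and −0.24 at its smallest when a sample was left out.

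Both other Nos1 probe sets were below the filter and split by array. On 430A, 1422949_at read 72.2 to 208 on the 6 arrays of set 1 and 13.4 to 39.2 on the 6 of set 2, without overlap. On 430B, 1458626_at read 162 and 316 on the arrays that stood apart and 6.70 to 78.9 on the other 10. Its log2 difference between curcumin TNBS and standard TNBS, 1.92 ± 0.69, rests on those 2 arrays, since the remaining curcumin TNBS sample read 15.6 and the standard TNBS samples 6.70 to 26.8. The standard TNBS samples were also below the standard controls (32.8 to 78.9) without overlap, as were 7.56% of all tested probe sets.

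Ret was tested on both array types. On 430A (1421359_at) it read 237, 255 and 248 in standard controls, 252, 302 and 413 in standard TNBS, 240, 350 and 233 in curcumin controls and 239, 243 and 206 in curcumin TNBS samples. Standard TNBS samples lay above curcumin TNBS samples without overlap, as 9.89% of all tested probe sets were lower on curcumin there. The means were 322 ± 82.6 and 229 ± 20.5, and the log2 difference of −0.44 ± 0.21 had an adjusted p of 0.517. On 430B (1436359_at) the same samples gave 435, 565 and 482 against 547, 454 and 360, which overlapped, with a log2 difference of −0.13 ± 0.23. Without the 2 arrays that stood apart that difference was 0.15 ± 0.30, with the opposite sign.

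The 2 Ret probe sets also differed in sign for TNBS on the standard diet (0.34 ± 0.21 on 430A and −0.08 ± 0.23 on 430B), for TNBS on the curcumin diet (−0.22 ± 0.21 and 0.20 ± 0.23), for the interaction (−0.56 ± 0.30 and 0.29 ± 0.32) and for curcumin with the control enema (0.12 ± 0.21 and −0.42 ± 0.23). In the last of these the 430B signals were 497, 457 and 624 in standard controls and 339, 438 and 390 in curcumin controls. Curcumin controls were lower without overlap, as were 4.65% of all tested probe sets, and the adjusted p was 0.997. The files do not tell which transcripts of Ret each probe set reads.

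Sox10 had 1 tested probe set (1424985_a_at), with signals of 327, 576 and 592 in standard controls, 643, 393 and 361 in standard TNBS, 566, 388 and 313 in curcumin controls and 345, 536 and 690 in curcumin TNBS samples. High and low samples occurred in every group, and the group means of 422 to 523 differed by no more than 0.29 on the log2 scale. The split followed the 430A array sets: 313 to 393 on the 6 arrays of set 1 and 536 to 690 on the 6 of set 2, without overlap. Over all 22626 probe sets of 430A, 15.4% did not overlap between the sets, and of the 15 member probe sets 2 did not (13.3%), this one and Nos1 1422949_at. The sets were drawn from these same values, so the split is a description. When the fit included the array set, the 4 group differences of Sox10 were 0.16, 0.04, 0.03 and −0.10 with an SE of 0.13.

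Another Sox10 probe set (1425369_a_at, 36.8 to 154) was higher on set 1 by 0.68 on the log2 scale, the opposite direction, and overlapped between the sets. The last (1451689_a_at) read 27.8 to 141 apart from 276 in curcumin control sample 2. Neither passed the filter.

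**Figure D2:**
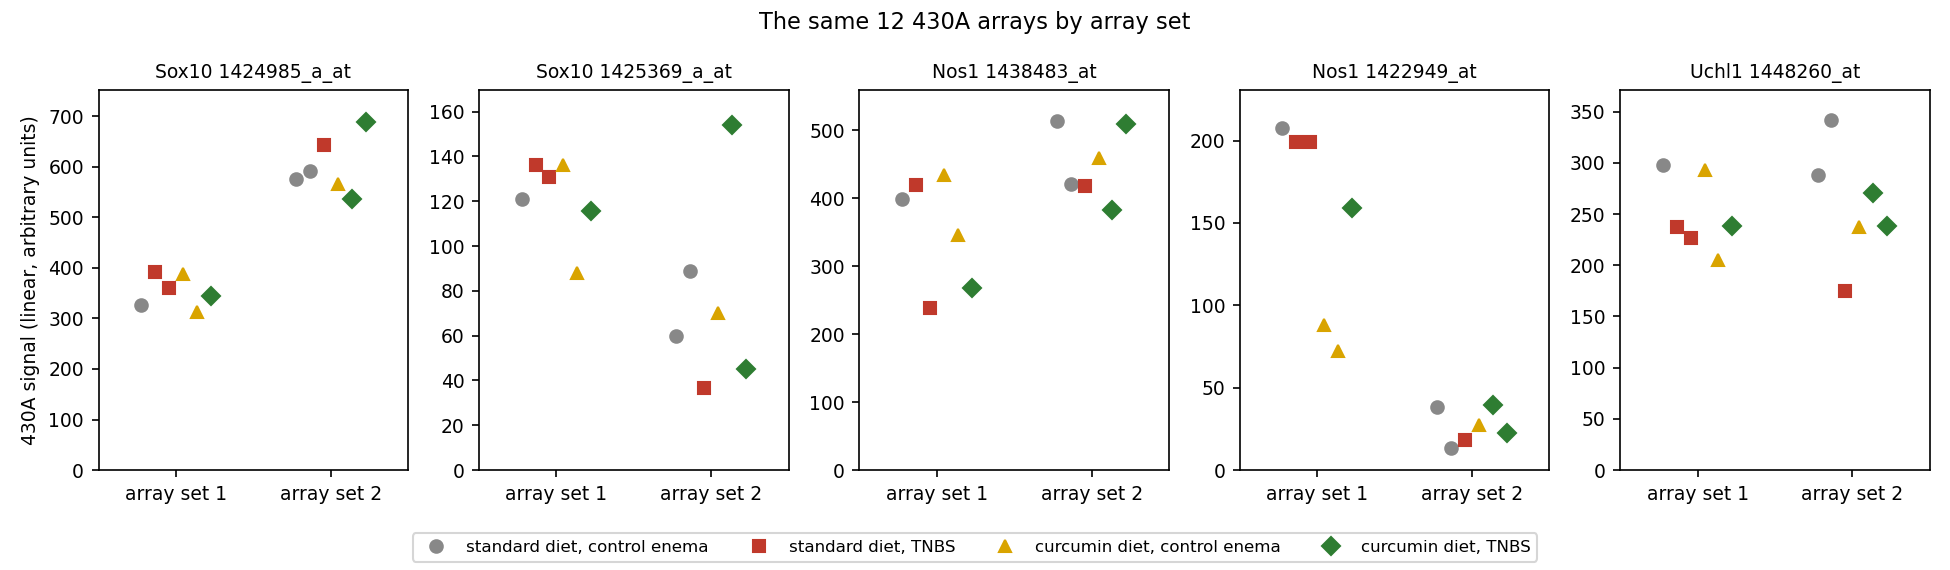
Signals of 5 probe sets on the 12 430A arrays (vertical axis, linear arbitrary units), split by array set, with the 4 groups as marker shapes. Sox10 1424985_a_at and Nos1 1422949_at separate by set without overlap (313 to 393 against 536 to 690, and 72.2 to 208 against 13.4 to 39.2), while Uchl1 overlaps between the sets (206 to 298 and 175 to 341).

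S100b, which encodes a calcium-binding protein of glia, was near the bottom of the scale on both probe sets. One (1419383_at) read 13.1 to 39.5 over the 12 arrays. The other (1434342_at) read 93.8, 140 and 107 in standard controls, 57.1, 94.7 and 93.6 in standard TNBS, 110, 130 and 56.1 in curcumin controls and 65.4, 97.0 and 110 in curcumin TNBS samples. The groups overlapped, and TNBS on the standard diet gave −0.42 ± 0.34 on the log2 scale.

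Gfap, the glial intermediate filament gene, was tested on 1 probe set (1426508_at), just above the filter. It read 185, 277 and 173 in standard controls, 284, 173 and 172 in standard TNBS, 208, 97.9 and 163 in curcumin controls and 166, 192 and 207 in curcumin TNBS samples. The standard diet groups had nearly equal means, 211 ± 56.8 and 210 ± 64.1, a log2 difference of −0.02 with a 95% confidence interval of −0.67 to 0.63. As a fold on the scale of signal plus 16 that interval is 0.628 to 1.55. The probe set 1426509_s_at, below the filter, was lower with TNBS than with the control enema on the curcumin diet without overlap (59.3, 77.6 and 96.4 against 179, 105 and 128), as were 6.53% of all tested probe sets. The tested probe set gave 0.29 ± 0.30 in that comparison, the opposite sign. The remaining probe set, 1440142_s_at on 430B and below the filter, read 97.9 to 368 over the arrays. It gave 0.47 ± 0.55 there, with overlap and the sign of the tested one.

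**Figure D3:**
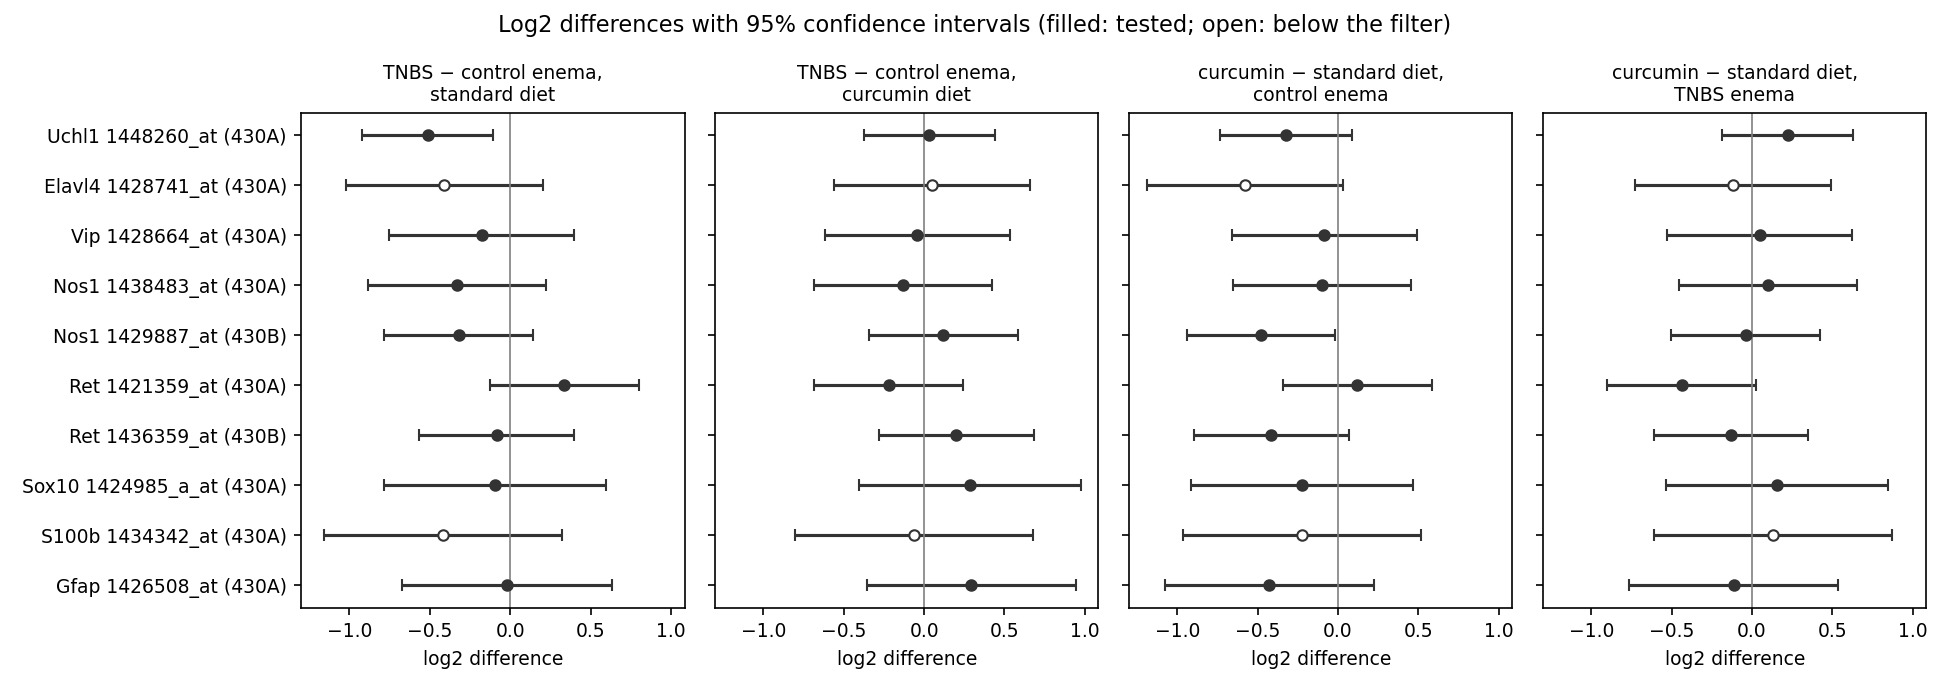
Log2 differences (horizontal axis) with 95% confidence intervals for 10 probe sets in the 4 comparisons of groups, filled where tested and open where below the filter. For TNBS on the standard diet the interval of Uchl1 (−0.92 to −0.10) lies below 0, and for curcumin with the control enema that of Nos1 1429887_at (−0.94 to −0.02) does, both without adjustment.

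Over the 8 tested probe sets the median log2 difference for TNBS on the standard diet was −0.14, with 7 negative, beside −0.02 and 53.7% negative over all tested probe sets. For curcumin with the control enema it was −0.27, with 7 negative, beside −0.02 and 53.2%. These comparisons share the standard control samples. The medians for TNBS on the curcumin diet and for curcumin with TNBS were 0.08 and 0.00, with 3 and 4 negative, beside 0.01 and 0.02 over all. These medians moved when the 430A fit included the array set, an alternative added after the data were seen. TNBS on the standard diet then gave −0.07 with 5 negative, curcumin with the control enema −0.13 with 4 negative, TNBS on the curcumin diet 0.04 with 3 negative and curcumin with TNBS −0.09 with 7 negative. Correlations among the 6 tested genes were taken within each 430A array set of 6 arrays, 30 in all, and with exact permutation tests none passed after Benjamini-Hochberg adjustment (lowest adjusted p 0.829 for Pearson's r and 0.500 for Spearman's rho). With 6 arrays even a perfect rho in a single pair could not pass among 30, and little room was left for r. Whether the genes vary together is therefore not decided by these tests. The lowest raw p was for Ret and Vip in set 2, with rho = 0.94 (exact p = 0.0167) and r = 0.36 (exact p = 0.386). Without the 2 of these 6 arrays farthest from the median, r was 0.89. The same step in set 1 moved r from −0.48 to 0.92 for Gfap and Sox10 and from −0.35 to 0.81 for Vip and Sox10. These are examples from the 30, and r over the few arrays left, which come from different groups, is unstable.

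The genes most like each member over the 12 arrays of 430A, by Pearson's r of log2 signal among 8347 or 8348 genes, were given as a description. Sox10 was closest to Bcl7b, Bbs9 and Bcl2l1 (r = 0.98, 0.98 and 0.97), and these arrays share the array sets. Uchl1 was closest to Lzts2, Map1lc3a and Ces1d (0.90, 0.89 and 0.88), Vip to Hdhd5, Mdk and Tent5c (0.89, 0.87 and 0.86), and Ret to Gfer, H2-D1 and Saa1 (0.85, 0.85 and 0.83). Nos1 was closest to Lsm7 and Rnf185 (0.94 and 0.91) and then to Dbh (0.90), which encodes the enzyme that makes noradrenaline. Gfap was closest to Cbln1, Efl1 and Rnase4 (0.92, 0.89 and 0.88), S100b to Ciz1, Msx3 and Pde6d (0.95, 0.90 and 0.88), and Elavl4 to Prkar1a, Cnot4 and Zfp704 (0.91, 0.90 and 0.87).

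Other genes of the enteric nervous system were taken from 5 lists: neuronal structure and regulation, transmitters and neuropeptides, receivers of VIP and nitric oxide, ligands and receptors of the Ret and endothelin pathways, and glia with the Schwann lineage. Of 84 symbols, 76 were on the arrays and 53 were tested at 1 probe set per gene. For TNBS on the standard diet 0 of 53 passed in limma and 7 had an unadjusted p under 0.05, where 7.27% of all tested probe sets had. The log2 differences were positive for 16 and negative for 37 genes, where 51.9% of all genes were negative. Of the 53, 8 were lower and 2 higher without overlap, where 7.30% and 7.67% of all genes were. The list medians were −0.17 for 15 structural genes, −0.09 for 13 transmitter genes, −0.12 for 7 receivers, −0.20 for 7 Ret and endothelin genes and −0.26 for 11 glial genes, beside −0.01 over all genes. For curcumin with TNBS 0 of 53 passed and 4 had an unadjusted p under 0.05, where 16.9% of all tested probe sets had. That share pools 1378 of 13575 probe sets on 430A and 3191 of 13506 on 430B. The differences were positive for 28 and negative for 25 genes, 4 were higher and 3 lower without overlap (9.46% and 10.3% of all genes), and the list medians were 0.09, −0.11, −0.02, −0.00 and 0.31 in the same order. TNBS on the curcumin diet gave 20 positive and 33 negative genes, where 52.2% of all genes were negative. Curcumin with the control enema gave 22 and 31, where 50.1% were negative. Sign counts of these lists with the array set in the fit are not given.

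**Figure D4:**
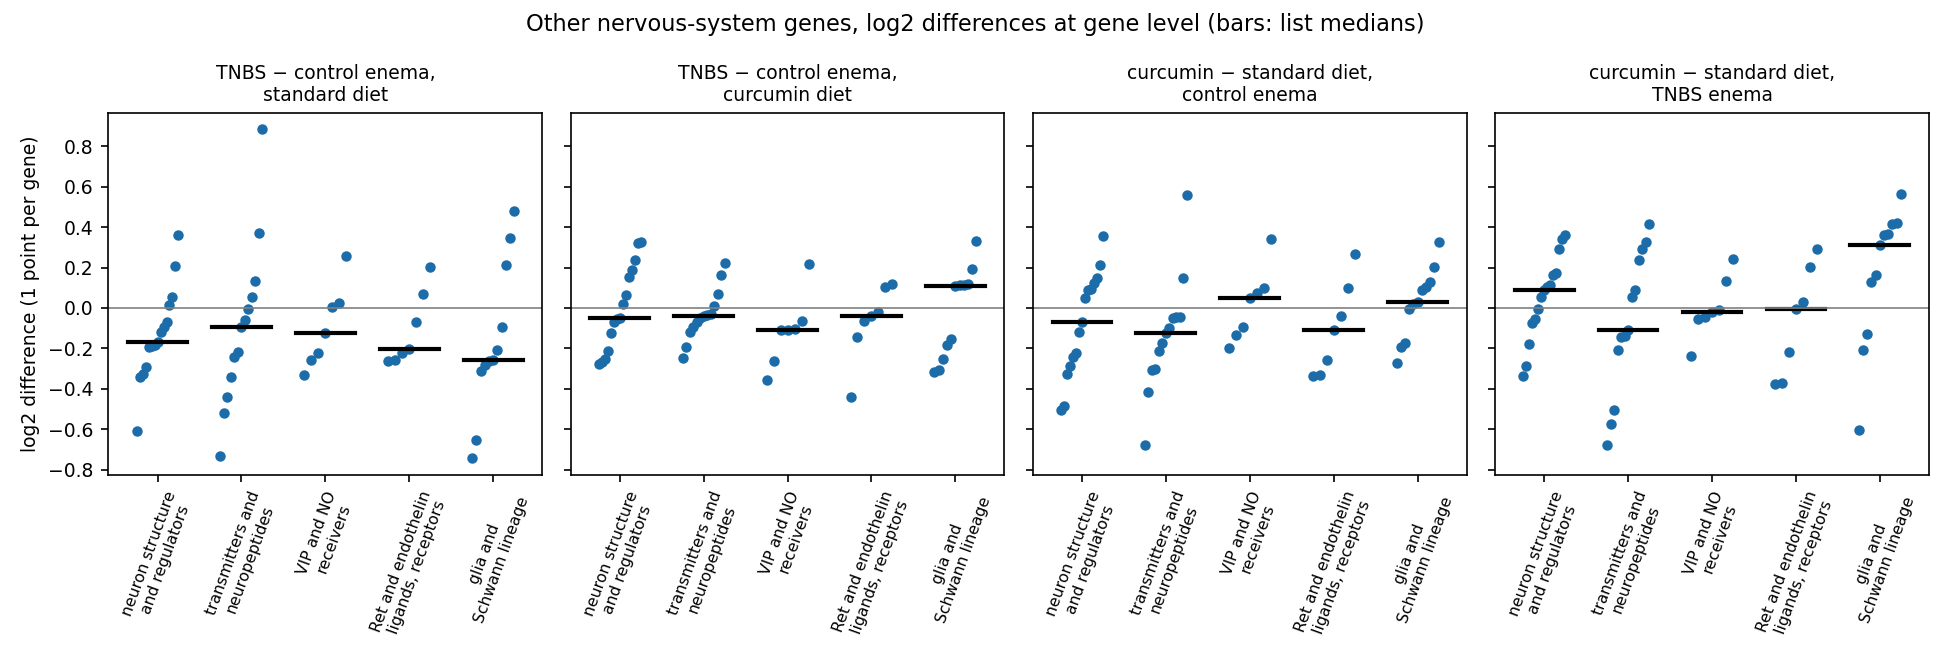
Log2 differences (vertical axis) of the 53 tested genes of the 5 nervous system lists, 1 point per gene, in the 4 comparisons of groups, with a bar at each list's median. For TNBS on the standard diet all 5 medians lie below 0 (−0.26 to −0.09) in the fit without the array set. The highest point among the transmitters there is Cartpt at 0.88.

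Cartpt, which encodes the neuropeptide precursor CART, had the largest difference of these genes for TNBS on the standard diet. It read 161, 242 and 247 in standard controls and 483, 338 and 411 in standard TNBS samples, and 316, 286 and 367 then 251, 250.0 and 305 in the curcumin control and TNBS samples. All 3 standard TNBS samples were above the standard controls, as were 7.67% of all genes, with a log2 difference of 0.88 ± 0.20 (adjusted p = 0.138 in limma). Within the array sets the difference was 1.14 and 0.94, each from 1 array against 2, and had to be positive because the groups did not overlap. The array set, drawn from these same values, was added to a fit after the data were seen. That fit gave 0.97 ± 0.17 with an adjusted p of 0.0485 in limma, for a gene picked by its large difference, so it is no independent support. In that fit 34 of 13575 probe sets on 430A passed as higher and 29 as lower. On the curcumin diet TNBS and control samples overlapped (−0.25 ± 0.20), and the difference between the TNBS effects was −1.13 ± 0.29 (adjusted p = 0.249). Summed pancreatic signal was 473.5, 58720 and 42525 in standard controls and 55999, 27081 and 64113 in standard TNBS samples. Its part in the Cartpt values was not tested.

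Calb2, which encodes calretinin, a calcium-binding protein of many enteric neurons, read 630, 512 and 525 in standard controls and 301, 335 and 344 in standard TNBS samples. The groups did not overlap, and the log2 difference was −0.74 ± 0.22 (adjusted p = 0.271). In this comparison 7.3% of all genes were lower without overlap, a share that also applies to the genes named below. In the curcumin TNBS group Calb2 read 290, 502 and 584, which overlapped with both. Rtn1, a reticulon gene of neurons and endocrine cells, read 364, 377 and 338 against 234, 197 and 263 on the standard diet, a log2 difference of −0.61 ± 0.21 without overlap (adjusted p = 0.364). Of the other structural genes the largest differences were those of Dcx (0.36), Stmn3 (−0.34) and Map2 (−0.33), all with overlap. The structural gene Nefl was lower without overlap (766, 786 and 721 against 537, 671 and 648). So were the peptide gene Sst (698.5, 630 and 523 against 426, 519 and 497.5) and Ece1 of the Ret and endothelin list (970, 1070 and 1185 against 925, 938 and 926). Calcb (−0.52), a CGRP gene, Ddc (−0.44), the enzyme that makes dopamine and serotonin, and Prkg1 (−0.33), the kinase that nitric oxide signals activate through cGMP, were lower without overlap in the same comparison, with adjusted p of 0.573, 0.401 and 0.875. The next largest receivers of VIP and nitric oxide were Pde5a (−0.26), Adcyap1r1 (0.26) and Gucy1b1 (−0.22), and the largest differences among Ret and endothelin genes were those of the co-receptors Gfra1 (−0.26) and Gfra2 (−0.23) and of the ligands Edn3 (−0.26) and Nrtn (0.20), all with overlap.

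Among glial genes, Cdh19 (−0.74) and Ngfr (−0.65) had the largest negative differences for TNBS on the standard diet, in both cases with overlap. In the opposite direction Cnp was at 0.34, with overlap. Gpm6b, a membrane glycoprotein gene of glia and neurons, read 342, 317 and 305 in standard controls and 401, 459 and 506 in standard TNBS samples. It was higher without overlap, as were 7.67% of all genes, with a log2 difference of 0.48 ± 0.15 (adjusted p = 0.299). Curcumin TNBS samples read 267, 287 and 327 for Gpm6b, below standard TNBS samples without overlap, as were 10.3% of all genes (−0.60 ± 0.15, adjusted p = 0.181). The neuropeptide galanin (Gal), at 508, 428 and 444 against 829, 586 and 848, was lower there without overlap (−0.68 ± 0.30, adjusted p = 0.458), and so was Cartpt (−0.58 ± 0.20, adjusted p = 0.342). The neurofilament gene Nefl (0.29), the peptide gene Sst (0.24), Ddc (0.29) and Erbb3 (0.37), a receptor gene of the glial list, were higher without overlap. So were 9.46% of all genes, and the adjusted p ran from 0.338 to 0.641 in limma. Which cells of the whole colon gave the Erbb3 signal was not tested.

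Markers of other cell types were summed in the same samples, and 0 of the tested genes of these lists passed the threshold in any comparison. Over 9 tested of 11 enteroendocrine genes, among them Chga and Chgb, the summed 430A signal was 9157 to 9846 in standard controls, 6837 to 8628 in standard TNBS, 7839 to 9315 in curcumin controls and 8569 to 9235 in curcumin TNBS samples. The standard diet groups did not overlap, with log2 differences positive for 3 of the 9 genes and negative for 6. Taken singly, 1 of the 9 was lower and 1 higher without overlap, where 7.30% and 7.67% of all genes were. A sum of linear signals weighs its brightest genes most. Kit, Ano1 and Pdgfra, of interstitial cells and fibroblast-like cells, summed to 2643 to 2931 in standard controls and 1869 to 2578 in standard TNBS samples, also without overlap. Taken singly, 0 of these 3 genes were free of overlap. Over 8 myeloid genes the sum was 6881 to 7952 in standard controls and 10007 to 12001 in standard TNBS samples, and 7367 to 8731 in curcumin TNBS samples. Of these 8 genes, 5 were singly higher with TNBS on the standard diet without overlap. Smooth muscle genes (12, sums of 50371 to 59327 and 42818 to 55044) and 10 epithelial genes (68430 to 79801 and 71130 to 73213) overlapped between the standard diet groups, while the sum of 6 adipocyte genes did not (11085 to 12290 and 4782 to 10761). Of those 6 adipocyte genes, 2 were singly lower without overlap. The sum of 5 pancreatic genes overlapped, at 473.5 to 58720 in standard controls and 27081 to 64113 in standard TNBS samples. All 5 had positive log2 differences, with a median of 1.93. No marker behind these sums was listed at 0, and their part in the values of Uchl1, Calb2, Rtn1, Ddc, Sst and Cartpt was not tested.

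**Figure D5:**
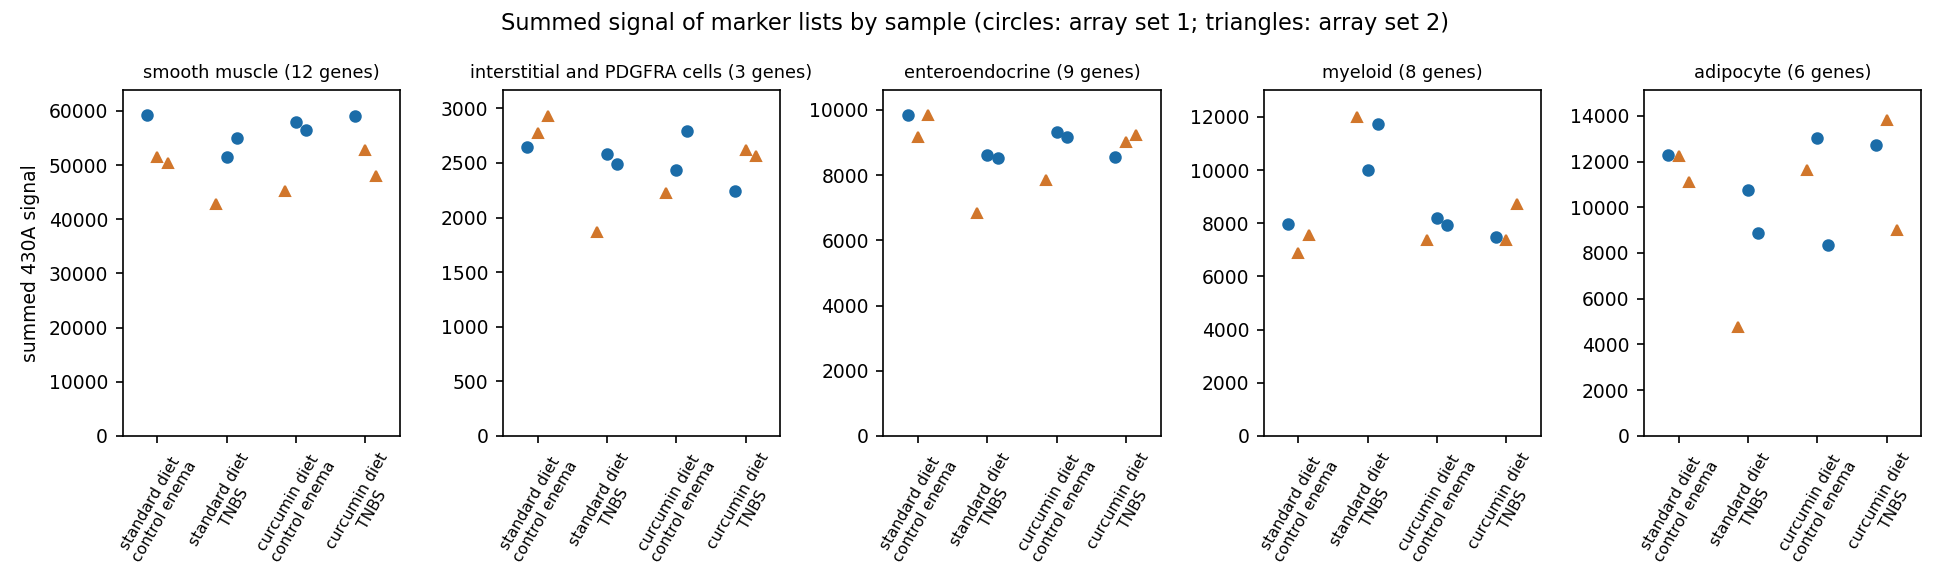
Summed 430A signal (vertical axis) of 5 marker lists of other cell types in each sample, with circles for array set 1 and triangles for array set 2. Enteroendocrine sums are lower in the 3 standard TNBS samples (6837 to 8628) than in standard controls (9157 to 9846), and myeloid sums are higher (10007 to 12001 against 6881 to 7952).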

How the data were processed

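Signals were measured on Affymetrix 430A and 430B arrays, 12 of each. The authors deposited linear signal intensity per probe set, produced with GCOS, per the submitters' processing notes. The GCOS version and the genome build are not given in the sources used here, and no coordinates are printed. The 2% trimmed mean of each array was near 500, so the arrays had been scaled, and they were used as deposited. Of the pairs of arrays, 0 were identical.

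Probe sets were named from the platform annotation. Control probe sets (64 per array type) were left out, and 20380 of 22626 on 430A and 14661 of 22511 on 430B have 1 gene symbol. Signals were raised by 16 and log2-transformed, so differences of dim probe sets are understated. Probe sets with a mean above the 40th percentile were tested, 13575 (430A) and 13506 (430B). The array types were fitted separately in limma 3.58.1 (R 4.3.3; lmFit and eBayes with a trend), with a mean per group over 12 arrays and 8 residual degrees of freedom. P-values are two-sided, with Benjamini-Hochberg adjustment within an array type. Probe sets below the filter take values from a fit without it.

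The 8 genes, the 12 lists, the rules and the alternatives were chosen with earlier results of these data known. A gene is read by its tested probe set with the highest mean, on 430A where tested there. Named are all members, list genes past the threshold, up to 4 genes per nervous system list with the largest difference in a comparison, and the 3 genes most like each member. Of the list genes the text prints those for TNBS on the standard diet and part of the others, and marker genes of other cell types were named after their values were seen. The fits were tested on simulated data. Alternatives were a filter at percentile 60 or none, a pseudocount of 1 or 64, quantile normalization, median centring, no trend, array weights, only the groups compared, the 430A array set as a term, 430B without its 2 outlying arrays, and each sample left out.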

Additional observations from a re-analysis of the deposited data

How the results depend on the processing

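The 70 log2 differences of member genes were recomputed under the alternatives, which gave 1533 values, of which 0 had an adjusted p under 0.05, and 0 of 161 counts of members past the threshold were above 0. The sign was opposite in 104 of these values, which belong to 37 of the differences. In 4 of them the shift was also larger than 1 standard error, and the cause was not tested in any. When the fit included the array set, the interaction of Sox10 (1424985_a_at) was −0.12 in place of 0.38. With centring on the median, TNBS on the curcumin diet gave −0.10 in place of 0.12 for Nos1 (1429887_at). Without the 2 outlying arrays, curcumin with TNBS gave 0.15 in place of −0.13 for Ret (1436359_at). Leaving out samples in turn moved Nos1 (1438483_at) for curcumin with TNBS between −0.16, without standard TNBS sample 3, and 0.33, in place of 0.10. Uchl1 for TNBS on the standard diet kept its sign in all 22 alternatives. The mean of a gene's tested probe sets gave the same values, since each gene has 1 tested probe set per array type. When the array set, itself drawn from these values, was included 1 gene of the nervous system lists passed, Cartpt for TNBS on the standard diet. In that fit and comparison 34 of the 13575 probe sets tested on 430A passed as higher and 29 as lower, against 1 and 0 in the main fit. For these lists no counts under array weights are given, a setting in which 117 and 79 probe sets of 430A passed in that comparison.

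No paired analysis was possible because the samples are numbered 1 to 12 with no number shared between groups.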
